A study of Mus musculus with 10 samples.

Results

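The 508 widest REST peaks of the 3xTg mouse cortex are described here, out of 5077 peaks in the 3xTg list outside chromosome Y. They were chosen by width alone: the list was ordered from wide to narrow, with ties by chromosome and start, and the first 508 were taken. Their widths ran from 1860 to 5805 bases, with a median of 2240.5 (quartiles 2009 and 2603), and the median of the other 4569 peaks was 881 bases. The narrowest wide peak covered the start site of Usp1 (1860 bases), and the first peak left out covered that of Wdr89 (1856 bases). Width chose these peaks, so it is given as a description with no test.

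Binding of REST was mapped by ChIP-seq, the sequencing of DNA recovered with immunoprecipitated chromatin, using an antibody to the C-terminal region of REST in bulk cortex of female mice, 11 months old. 3xTg mice, which model Alzheimer's disease and have a mixed C57BL/6J and 129Sv/Ev background, carry the APPSwe transgene and a mutant tau transgene, among other changes, and WT mice were their littermate controls. Each genotype had 4 replicates and 1 input library, each made from 4 pooled cortices. The deposited data are 1 list of peaks per genotype, which combines the 4 replicates. No value of a peak therefore has a replicate spread, no comparison between genotypes was tested, and read depth is not known from the lists. In bulk tissue, binding in fewer cells and less binding per cell cannot be told apart. The lowest fold enrichment was 8.50 in the 3xTg list and 6.003 in the WT list, so the lists do not reach equally far down. Shares of peaks are given with 95% Wilson intervals, which cover counting error over peaks alone.

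REST is a zinc-finger repressor that binds RE1, a long DNA element made of a left and a right part, near genes used by mature neurons. It recruits the corepressors Sin3a and Rcor1, which bring histone deacetylases and demethylases to the site. In peak calling, the width of a peak is the stretch of DNA over which immunoprecipitated fragments exceed the local background, and the summit is the position where they pile up most. Fold enrichment is the height of the summit over that background.

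An RE1 match was searched for in the 200 bases around each summit, a window of fixed size that does not depend on width. The motif was spelled by its left and right parts, CAGCACC and GGACAG, separated by 2 bases. Both strands were read, and at most 2 of the 13 letters could differ. The following windows hold matches of wide peaks with no mismatch. They are the highest by fold enrichment, less 1 peak whose sequence is not printed, with Snap25 added from the lists of genes, and are read from mm10 in the direction of the motif with 7 bases on each side. Capitals mark the matched letters.
Phf21b intron, chr15:84829592-84829620, minus strand: atgaggcCAGCACCacGGACAGcaccaga
Vstm2l, upstream, chr2:157913509-157913537, minus strand: gagggttCAGCACCgtGGACAGatccccg
Npas4, chr19:4989155-4989183, plus strand: tgggattCAGCACCgcGGACAGctcctgc
Xkr6 intron, chr14:63681678-63681706, plus strand: ccgcaggCAGCACCacGGACAGctcccac
Swsap1 region, chr9:21950523-21950551, minus strand: gcagagtCAGCACCaaGGACAGaggcgtc
Xkr7, chr2:153032388-153032416, plus strand: ccgccgtCAGCACCaaGGACAGcgacata
Mir132 and Mir212, chr11:75173519-75173547, minus strand: actgcatCAGCACCgcGGACAGcggcgca
Syt7 intron, chr19:10403276-10403304, plus strand: gagtgttCAGCACCaaGGACAGggatatc
Snap25, chr2:136714283-136714311, plus strand: gggagctCAGCACCctGGACAGgagtgct

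Most wide peaks had no such match. The 4 windows below show 120 bases around summits without one, read from the plus strand of mm10, with every CG in capitals. They were chosen after their values were seen, as the windows with the most CG among the 50 widest peaks, clear of every annotated exon, with the peaks of 1 chromosome left out. Mnt encodes a repressor of the Max network, Dusp1 a phosphatase of MAP kinases that is induced by stress, Nr1d1 a repressor of the circadian clock, and Casp9 an initiator caspase. The Mnt window holds 13 CG, the Dusp1 window 11, the Nr1d1 window 10 and the window between Casp9 and Dnajc16 holds 7.
Mnt, chr11:74832262-74832381: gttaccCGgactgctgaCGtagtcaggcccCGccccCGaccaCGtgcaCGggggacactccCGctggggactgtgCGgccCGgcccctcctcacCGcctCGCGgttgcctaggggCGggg
Dusp1, chr17:26508768-26508887: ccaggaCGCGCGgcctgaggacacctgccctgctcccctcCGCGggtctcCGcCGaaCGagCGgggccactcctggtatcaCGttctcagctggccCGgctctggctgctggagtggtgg
Nr1d1, chr11:98773942-98774061: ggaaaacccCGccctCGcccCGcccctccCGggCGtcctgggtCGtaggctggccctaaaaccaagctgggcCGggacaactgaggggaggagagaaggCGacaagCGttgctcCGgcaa
Casp9 and Dnajc16, chr4:141790789-141790908: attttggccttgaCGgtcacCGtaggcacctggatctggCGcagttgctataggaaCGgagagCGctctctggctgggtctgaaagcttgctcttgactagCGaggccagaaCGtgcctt

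The widest peak lay over Npas4, a transcription factor induced by neuronal activity, at chr19:4987727-4993531. It was 5805 bases wide with a fold enrichment of 55.8. It ran from 3560 bases upstream of the start site to 2245 bases downstream, with its summit 813 bases inside the gene. Its RE1 match, shown above, was centred 11 bases from the summit. The second widest peak, over the start site of Trim9 at chr12:70345453-70350794, was 5342 bases wide with a fold enrichment of 14.2. Trim9 encodes a ubiquitin ligase of neurons. The third widest, 5138 bases over Tle3 at chr9:61368416-61373553, had the highest fold enrichment of the whole list, 69.0, and its summit lay 1777 bases upstream of the start site. Tle3 encodes a corepressor of the Groucho family.

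The next widest peaks covered start sites of genes with other roles. Tsc22d1, a leucine zipper gene responsive to TGF-beta, had a peak of 5073 bases with a fold enrichment of 10.4. Brd2, which encodes a reader of acetylated histones, shared a peak of 5037 bases with H2-DMa, and its fold enrichment was 9.83. Scrt1, a neural zinc-finger repressor, had a peak of 4929 bases with a fold enrichment of 30.0 and an RE1 match with 1 mismatch. Tnrc18 (4667 bases), the tropomyosin gene Tpm1 (4664), the microtubule-associated protein gene Map4 (4578) and the pair Casp9 and Dnajc16 (4460) followed, with fold enrichments of 9.90 to 14.7. Among the 15 widest, 3 summits lay between genes with curated transcripts, over 4 kb from a curated start site, near Rhof, Irgm1 and Trim27. The peaks near Irgm1 and Trim27 covered 4 and 5 tRNA genes, which are not among the curated transcripts. The fold enrichments of the 15 thus ran from 9.06 to 69.0, and the widest peaks included both high and low summits.

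The fold enrichment of the wide peaks had a median of 12.5 (quartiles 10.2 and 19.4, range 8.50 to 69.0), and that of the other 3xTg peaks a median of 10.7 (quartiles 9.34 and 13.6). Both measures come from the same libraries as width. The 10 highest among the wide peaks included 3 at genes of the Groucho family: Tle3 (69.0), Tle1 (66.5) and a peak 4232 bases upstream of the start site of Tle2 (61.8). The others were in introns of Utp4 (67.0), Smad2 (65.4), Phf21b (57.8) and Xkr6 (55.4), upstream of Igsf21 (60.6) and Vstm2l (56.6), and at Npas4 (55.8). The lowest was at Gsk3a (8.50), a glycogen synthase kinase. Near this end were also the H1f1, H3c1 and H4c1 histone cluster (8.54), the aspartate aminotransferase gene Got1 (8.55), Gsk3b (8.57), Arf4 (8.58) and the clock output gene Dbp (8.61). By fold enrichment, 514 of all 3xTg peaks (10.1%) ranked 508 or higher, ties included. These were 124 of the wide peaks (24.4%) and 390 of the others (8.54%).

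Whether the wide regions were also bound in WT was read from the WT list, which the choice of peaks did not use. Of the 508 wide peaks, 364 (71.7%, interval 67.6 to 75.4%) overlapped a WT peak by at least 1 base. Over all 5077 3xTg peaks the share was 49%, and over the other 4569 it was 46.5% (45.1 to 48.0%). A wide region overlaps more by its length alone, so the summit, a single base, was also used. The summit lay in a WT peak for 353 wide peaks (69.5%, 65.4 to 73.3%), against 48.7% of all 3xTg peaks and 46.4% (45.0 to 47.9%) of the others. The share depended on how overlap was counted. A WT peak covered at least 50% of the peak in 31.9% (28.0 to 36.1%) of the wide peaks. The shares were 35.4% (34.1 to 36.8%) of the others and 35.1% of all. This rule asks for a longer WT peak the wider the 3xTg peak is, and WT peaks had a median width of 611.5 bases. Length thus works against the wide peaks here, so these shares cannot show whether wide regions were bound more often in WT. Once both lists were limited to fold enrichments over 10, 35.5% (30.5 to 40.9%) of the widest 321 peaks overlapped a WT peak, against 16.6% (15.3 to 17.97%) of the other 2891 and 18.5% of all.

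The presence of a WT peak moved with fold enrichment, in bands set after the values were seen. Among wide peaks with a fold enrichment under 10, the summit of 42 of 113 (37.2%, 28.8 to 46.4%) lay in a WT peak, against 19.1% (17.3 to 21.0%) of the other 3xTg peaks in the band. From 10 to 12.5 the shares were 54.9% (46.7 to 62.9%) and 40.04% (37.5 to 42.7%). From 12.5 to 20 they were 84.8% (77.8 to 90.0%) and 80.5% (78.0 to 82.7%). Above 20, the summits of all 121 wide peaks lay in a WT peak, as did those of 369 of the 370 others. The intervals of wide and other peaks were thus apart in the lower 2 bands and overlapped in the upper 2.

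In WT the same regions also carried wider peaks. The WT peaks that held the summits of the wide peaks had a median width of 1065 bases (quartiles 766 and 1430, n = 353). Those that held the summits of the other 3xTg peaks had a median width of 585 bases (quartiles 441 and 769, n = 2121). Of the 301 widest WT peaks, at least 1133 bases each, 157 (52.2%) overlapped a wide 3xTg peak and 268 (89.0%) overlapped a 3xTg peak of any width. In the other direction, 157 of the 508 wide peaks (30.9%) and 111 of the 4569 others (2.43%) overlapped one of these WT peaks. The distance between the WT and the 3xTg summit had a median of 32 bases for both the wide (quartiles 13 and 61) and the other peaks (14 and 59).

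A wide 3xTg peak was a median of 2.15 times as wide as the WT peak at its summit (quartiles 1.63 and 3.00, range 1.01 to 10.3), and 192 of 353 were over 2 times as wide. For the other 3xTg peaks the median was 1.60 (quartiles 1.35 and 1.97). The ratio is set in part by the choice of wide 3xTg peaks, so it is a description. It was highest at a region of chromosome 12 with the summit 8419 bases upstream of Gm10432, where a peak of 3116 bases held a WT peak of 303 bases. The deubiquitinase gene Stambpl1 (2883 and 291 bases), Zfp532 (3838 and 436) and the pseudokinase gene Trib2 (3155 and 382) followed. At Trim9 the widths were 5342 and 856 bases, and at Dusp1 3315 and 537. The lowest ratio, 1.01, was in an intron of Mief1 (2664 and 2631 bases). Among peaks over a start site, those of Eapp (2736 and 2663 bases), Phyhipl (2368 and 2225) and Myo10 (2221 and 1999) had the lowest ratios.

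**Figure D1:**
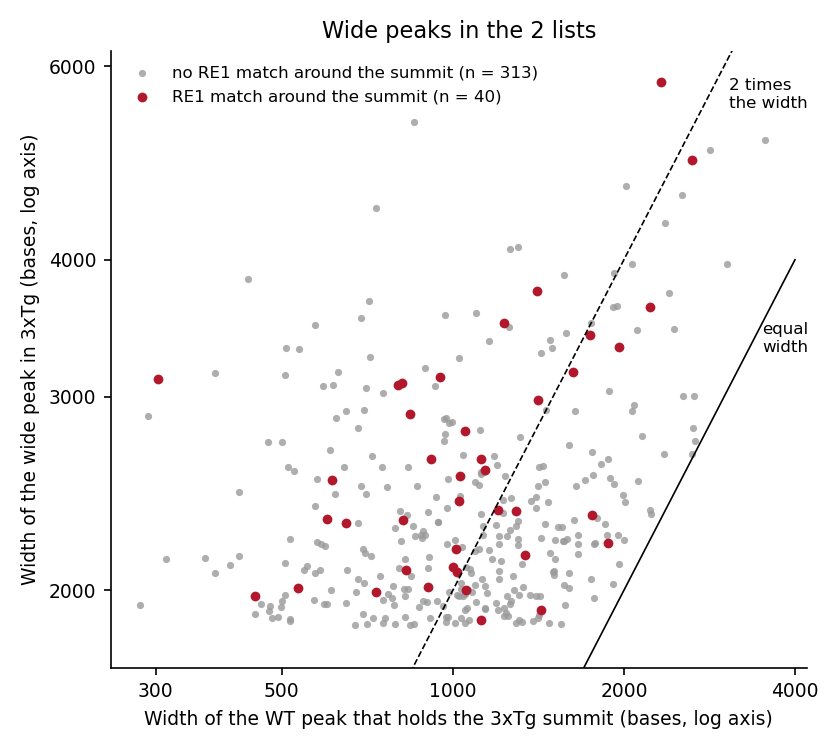
Width in bases of each of the 353 wide 3xTg peaks whose summit lies in a WT peak, against the width of that WT peak, both on log axes. The solid line marks equal width and the dashed line 2 times the width, and 192 points lie above the dashed line, with the 40 points with an RE1 match spread on both sides of it.

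Of the wide peaks, 15 (2.95%, 1.797 to 4.81%) covered 2 WT peaks and none covered more. Over all 3xTg peaks the share was 0.295%, which is these 15. A wide peak covers more WT peaks by its length alone, so this contrast is set in part by the choice of peaks. The gaps between the WT peaks ran from 87 to 2343 bases, with a median of 361. The longest gap was at Npas4, where a WT peak of 770 bases with a fold enrichment of 6.05 lay upstream and one of 2323 bases with a fold enrichment of 53.7 lay over the start site. At Tle3, WT peaks of 460 bases (7.56) and 3536 bases (68.6) were 409 bases apart, and the second was the widest peak of the WT list. At Gadd45b, a growth arrest gene induced by DNA damage, WT peaks of 663 bases (6.05) and 1119 bases (30.5) lay under a 3xTg peak of 2562 bases with a fold enrichment of 45.0. The others, of which the narrowest were named after their values were seen, included Tmeff2, the Krüppel-like factor gene Klf7, the inhibitor of PI3 kinase Pik3ip1, the polycystin gene Pkd1, Ahcyl1, Mlf2, the autophagy gene Gabarapl2 and the histone pair H2ac11 and H2bc11. At Klf7 the WT peaks were 1097 and 1528 bases wide, and at Pkd1 584 and 1041.

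**Figure D2:**
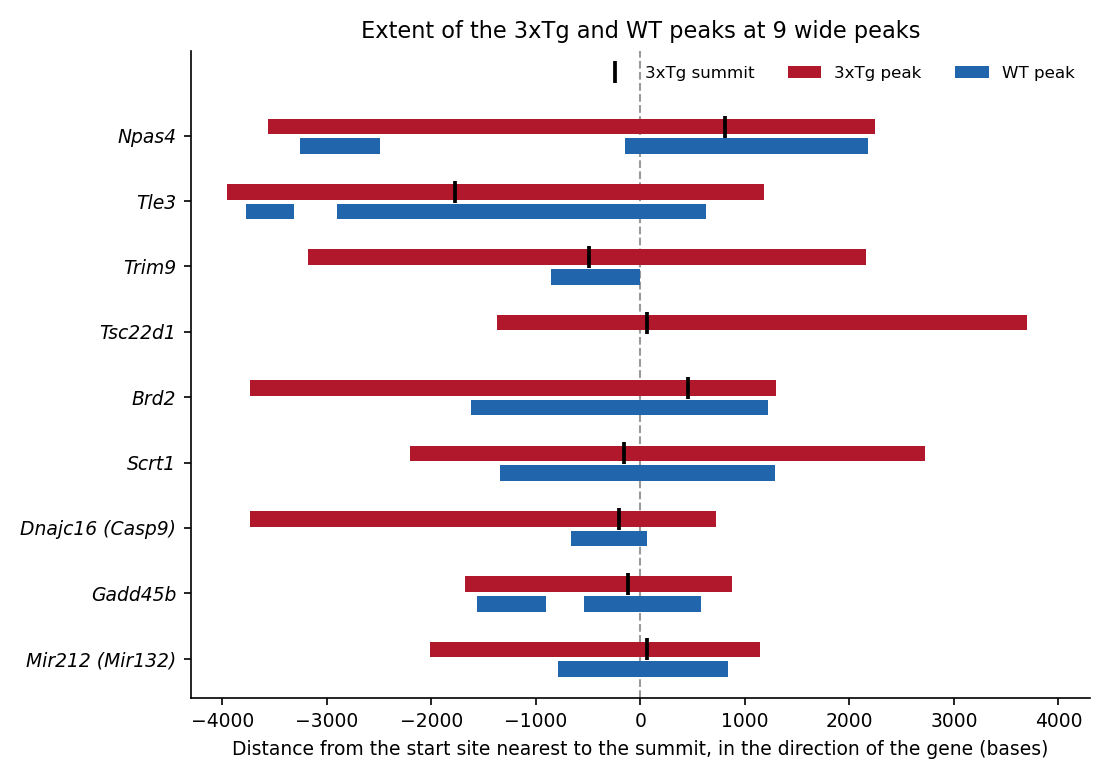
Extent of the 3xTg peak (red), its summit (black mark) and the WT peaks (blue) at 9 of the wide peaks, in bases from the start site nearest to the summit and in the direction of the gene. Npas4, Tle3 and Gadd45b hold 2 WT peaks each, Tsc22d1 holds none, and at the other 5 the single WT peak lies inside the 3xTg peak.

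No WT peak was found for 51.0% of all 3xTg peaks and 53.5% (52.0 to 54.9%) of the other 4569. The remaining 144 wide peaks (28.3%, 24.6 to 32.4%) also had none. The widest of these were at Tsc22d1 (5073 bases), Tpm1 (4664), a region 4111 bases upstream of the small GTPase gene Rhof (4446), the H2ac23, H2bc23 and H4c17 histone cluster (3851) and Zc3h4 (3811). Sipa1l1 (3570 bases) and the heat shock protein gene Hsph1 (3371) were also in this group. Their summits were low: the median fold enrichment was 10.03 (quartiles 9.19 and 11.0, highest 17.1), against 15.9 (11.6 and 23.1) for the 364 with a WT peak. They covered start sites in 114 of 144 cases (79.2%, 71.8 to 84.999%), against 224 of 364 (61.5%, 56.4 to 66.4%) of those with a WT peak. An RE1 match around the summit was found in 2 of 144 (1.39%, 0.382 to 4.92%), against 40 of 364 (11.0%, 8.17 to 14.6%). The part of fold enrichment in these differences was not tested.

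Position was taken from the RefSeq annotation of mm10, with the start sites of curated transcripts, which leave out tRNA genes. Of the wide peaks, 338 (66.5%, 62.3 to 70.5%) covered a start site, against 29.6% of all 3xTg peaks and 25.5% (24.2 to 26.8%) of the others. The summit of 299 (58.9%, 54.5 to 63.1%) was at most 1 kb from a start site, and that of 118 (23.2%) lay in an intron, 85 (16.7%) between genes and 6 (1.18%) in an exon beyond 1 kb. For the other 3xTg peaks these shares were 27.5% (26.2 to 28.8%), 43.6%, 27.8% and 1.03%. In 44 wide peaks, such as those of Tle3, Map4 and Klf7, the peak covered a start site while its summit lay over 1 kb away. No start site lay within 5 kb of 111 wide peaks (21.9%), and this was so for 63.4% of the others.

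Start sites on both strands were covered by 82 wide peaks (16.1%, 13.2 to 19.6%), against 5.71% of all 3xTg peaks and 4.55% (3.99 to 5.196%) of the others. Among peaks with a promoter summit the shares were 27.1% (22.4 to 32.4%) of 299 and 16.5% (14.6 to 18.7%) of 1257. A wide peak covers more start sites and genes by its length alone, and the promoter split does not remove this. The median widths in that split were 2226 and 1161 bases. Such pairs included Brd2 and H2-DMa, Casp9 and Dnajc16, Cdk5 and Slc4a2, Gsk3b and BC031361, and Cbx5 and Hnrnpa1. Of the wide peaks, 250 covered 1 gene, 80 covered 2, 8 covered 3 and 170 covered none. Of the 8 with 3 genes, 4 were histone clusters, and the others held Mir1894, Mrps18b and Ppp1r10, Akt1s1, Mir707 and Tbc1d17, Gm38670, Hspb6 and Proser3, and Dnaja1, Gm6297 and Mir207. A WT peak was found at 1 of these 8, the peak of 3968 bases at Ppp1r10, which encodes a targeting subunit of protein phosphatase 1.

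By the median over all 338, the wide peaks were close to centred around the start site. A median of 51.0% of the bases lay downstream (quartiles 34.7 and 66.9%, n = 338), which is a median of 1188.5 bases downstream and 1148 upstream. For the other 3xTg peaks over a start site the median share was 45.4% (30.3 and 58.2%, n = 1164). Single genes differed widely. At Gsk3a 4.43% of the peak lay downstream of the start site, at Foxo3 14.8% and at Cdk5 16.0%, while the share was 84.0% at Bsn and 89.9% at Nr1d1. In 155 wide peaks on 1 strand that held 1 whole WT peak, the 3xTg peak went past the WT peak by a median of 596 bases on the downstream side (quartiles 316.5 and 1064.5) and 417 bases on the upstream side (238 and 753.5). The downstream part was the longer in 92 and the upstream part in 63.

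The wide peaks covered a start site of 433 genes, which is 1.65% of the 26180 annotated genes and 23.96% of the 1807 genes (6.9% of those annotated) whose start site lay under any 3xTg peak. A WT peak also covered a start site of 199 of these 433 genes (46.0%). Of all annotated genes, 1090 (4.16%) had a start site under a WT peak. This was not counted among the 1807 genes, so 46.0% has no like value from other 3xTg peaks beside it. Lists of genes were read against the 1.65% and 6.9% of annotated genes. They were chosen with earlier results of these data known, and a wide peak covers more start sites by its length. Of 302 listed genes, 31 (10.3%) were covered by a wide peak and 52 (17.2%) by any 3xTg peak.

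Genes of tau kinases and apoptosis gave the largest count, 8 of 21, and 10 of 21 under any 3xTg peak. The study named several of these genes from the same samples, so the count is not independent evidence. The tau kinase genes were Cdk5 (2528 bases, fold enrichment 12.5, WT peak of 979 bases), Gsk3b (2512 bases, 8.57, no WT peak), Gsk3a (1964 bases, 8.50, no WT peak) and Mark2 (1937 bases, 11.2, no WT peak). The stress and death genes were Casp9, Gadd45b, the DNA damage gene Gadd45a (2186 bases, 15.0, no WT peak) and the forkhead factor gene Foxo3 (1977 bases, 8.90, WT peak of 1041 bases). The 3xTg peak shared by Casp9 and Dnajc16 was 4460 bases wide with a fold enrichment of 14.7. The start site nearest to its summit was that of Dnajc16, 205 bases away. Its WT peak, 732 bases wide with a fold enrichment of 9.27, also lay over the start site of Dnajc16. At 4 of these 8 genes, then, a WT peak lay somewhere under the 3xTg peak. A WT peak covered the start site of the gene itself at 2 of the 8. None of the 8 had an RE1 match around its summit.

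Of 16 circadian clock genes, 5 were covered by a wide peak and 7 by any 3xTg peak. Nr1d1 (3632 bases, fold enrichment 9.30) and its paralog Nr1d2 (2291 bases, 9.83) encode repressors of the clock's positive arm. Dbp (2583 bases, 8.61) and Tef (2514 bases, 10.6) are PAR bZIP output genes, and Ciart (1867 bases, 8.66) encodes a repressor of the clock. WT peaks lay under the wide peaks of Nr1d1 (1942 bases), Tef (2118 bases) and Nr1d2 (1293 bases), and none under those of Dbp or Ciart. A WT peak covered the start site of the gene itself at 2 of the 5. The summits of all 5 were low, between 8.61 and 10.6. Another wide peak lay within 10 kb of that of Nr1d1, with a fold enrichment of 21.2 and a WT peak.

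Immediate early genes under wide peaks were Npas4, Dusp1 and the AP-1 gene Jun (2518 bases, fold enrichment 10.4), 3 of 22, and these were also the 3 under any 3xTg peak. The presynaptic list held 3 of 21, with 6 under any 3xTg peak. The 3 were Snap25, a SNARE of vesicle fusion (3748 bases, 19.0), the vesicle GTPase gene Rab3c (2569 bases, 19.3) and the active zone scaffold gene Bsn (2652 bases, 14.7). Each had a WT peak, of 1406 bases with a fold enrichment of 19.6 at Snap25, 526 bases at Rab3c and 1182 bases at Bsn. Groucho, Notch and Wnt genes held Tle1 and Tle3, 2 of 23, with 4 under any 3xTg peak. The peak of Tle1, which also covered C630043F03Rik, was 3433 bases wide with a WT peak of 1584 bases and a fold enrichment of 53.1. The ion channel list held 1 of 23, with 2 under any 3xTg peak. This 1 was Cacng2, an auxiliary subunit of AMPA receptors, whose peak of 2605 bases (45.2) lay over a WT peak of 1820 bases (46.1).

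Sin3a, the scaffold of a corepressor complex of REST, was the 1 of 16 genes of the Rest and corepressor list, with 2 under any 3xTg peak. Sin3a had 2 neighbouring wide peaks, of 2602 and 2272 bases with fold enrichments of 11.6 and 22.3, and each had a WT peak. Brd2 was the 1 of 20 chromatin regulators, with 3 under any 3xTg peak. The translation list held Eif1 and Eif4g2, 2 of 20, with 3 under any 3xTg peak. The folding and stress list held the polyubiquitin gene Ubb and the stress response factor gene Atf4, 2 of 17, with 6 under any 3xTg peak. Hnrnpa1 was the 1 of 23 RNA-binding genes, with 4 under any 3xTg peak. Among neural lineage transcription factors (29 genes), Hox and Dlx genes (14) and glial and vascular markers (23), no start site was covered by a wide peak or by any other 3xTg peak.

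Of 14 brain microRNA genes, Mir132 and Mir212 lay under 1 wide peak, at chr11:75171379-75174536, and these were also the 2 under any 3xTg peak. Both are transcribed together and are known to be induced by neuronal activity. The peak was 3158 bases wide with a fold enrichment of 27.4, its WT peak was 1626 bases wide with a fold enrichment of 13.8, and the exact RE1 match shown above was centred 80 bases from the summit, between the hairpins. The mature sequences from RefSeq are given with the seed, bases 2 to 8, in capitals, because both share it.
mmu-miR-132-3p: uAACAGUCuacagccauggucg
mmu-miR-212-3p: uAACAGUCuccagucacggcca

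RE1 matches within the 200 bases around the summit were found in 42 wide peaks (8.27%, 6.17 to 11.0%), against 4.27% of all 3xTg peaks, 3.83% (3.31 to 4.43%) of the others and 0.591% (0.201 to 1.72%) of the wide peaks' own windows placed 10 kb downstream. In 17 the match was exact and in 25 it had 1 or 2 mismatches. Matches were centred a median of 22 bases from the summit (quartiles 8.25 and 31.0). The share depended on the search: it was 17.3% with 3 mismatches allowed and 20.5% in the whole peak. In windows of 300 bases, 9.25% of the wide peaks and 1.92% of the 32851 RefSeq promoter windows held a match. Among peaks with a promoter summit, 7.69% (5.18 to 11.3%) of the wide and 3.50% (2.62 to 4.67%) of the other 3xTg peaks held one. Among the rest the shares were 9.09% (5.90 to 13.8%) and 3.96% (3.34 to 4.67%). In the bands of fold enrichment used above, the RE1 shares of wide and other peaks were 1.77% and 3.03% under 10. They were 7.04% and 2.78% from 10 to 12.5, 7.58% and 4.07% from 12.5 to 20, and 16.5% and 10.8% above 20. The intervals were apart from 10 to 12.5 and overlapped in the other bands. The part of fold enrichment in the RE1 shares was not tested.

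The 42 wide peaks with a match had a median fold enrichment of 19.4 (quartiles 12.02 and 39.6), against 12.3 (10.04 and 18.6) for the 466 without. They covered a start site in 27 cases. Exact matches not printed above included those at Ogdhl, a gene related to oxoglutarate dehydrogenase, and, chosen after their values were seen, at the orphan receptor gene Gpr19 and at the receptor kinase gene Alk. Further genes with a match, chosen in the same way, were those of the granin family and related secreted proteins Vgf (fold enrichment 43.4, 1 mismatch) and Chga (11.1, exact), the potassium-chloride cotransporter Slc12a5 (19.9, 1 mismatch), the AMPA receptor subunit Gria2 (11.7, 1 mismatch) and the muscarinic receptor Chrm4 (12.9, exact). The WT peak at Vgf was 1873 bases wide under a 3xTg peak of 2207 bases, and that at Gria2 was 800 bases under 3074. Gria2 and Chga thus had wide peaks with fold enrichments below the median of the 508.

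The sequence around the summits of the wide peaks was rich in G and C. In 500 bases the median G and C content was 52.6% (quartiles 46.4 and 60.8%), against 46.4% (41.6 and 53.2%) in the other 3xTg peaks and 44.6% in the windows 10 kb downstream. The observed over expected number of CpG, a measure that marks CpG islands, had a median of 0.608 (0.328 and 0.787), against 0.281 (0.155 and 0.583) in the others and 0.183 downstream. The values were also read by the place of the summit. At promoters the median was 0.725 (0.556 and 0.828) for the wide and 0.763 (0.598 and 0.884) for the other peaks, and away from promoters it was 0.355 (0.191 and 0.591) and 0.212 (0.124 and 0.320). The whole wide peak held a median of 91 CpG (52 and 129).

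Across the list cut into 10 groups by width, the share with the summit in a WT peak was 69.5% in the widest, 61.7% in the next and 22.05% (18.7 to 25.9%) in the narrowest. Promoter summits made up 58.9%, 59.6% and 6.69% (4.83 to 9.21%) of these groups. Next to the following group, of 1461 to 1856 bases, the widest group had overlapping intervals for the promoter share, a CpG median of 0.608 against 0.617, and overlapping intervals for RE1 (8.27%, 6.17 to 11.0%, and 6.31%, 4.51 to 8.77%). RE1 matches were least frequent in the eighth group (1.97%, 1.07 to 3.59%) and were found in 4.33% (2.88 to 6.47%) of the narrowest.

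**Figure D3:**
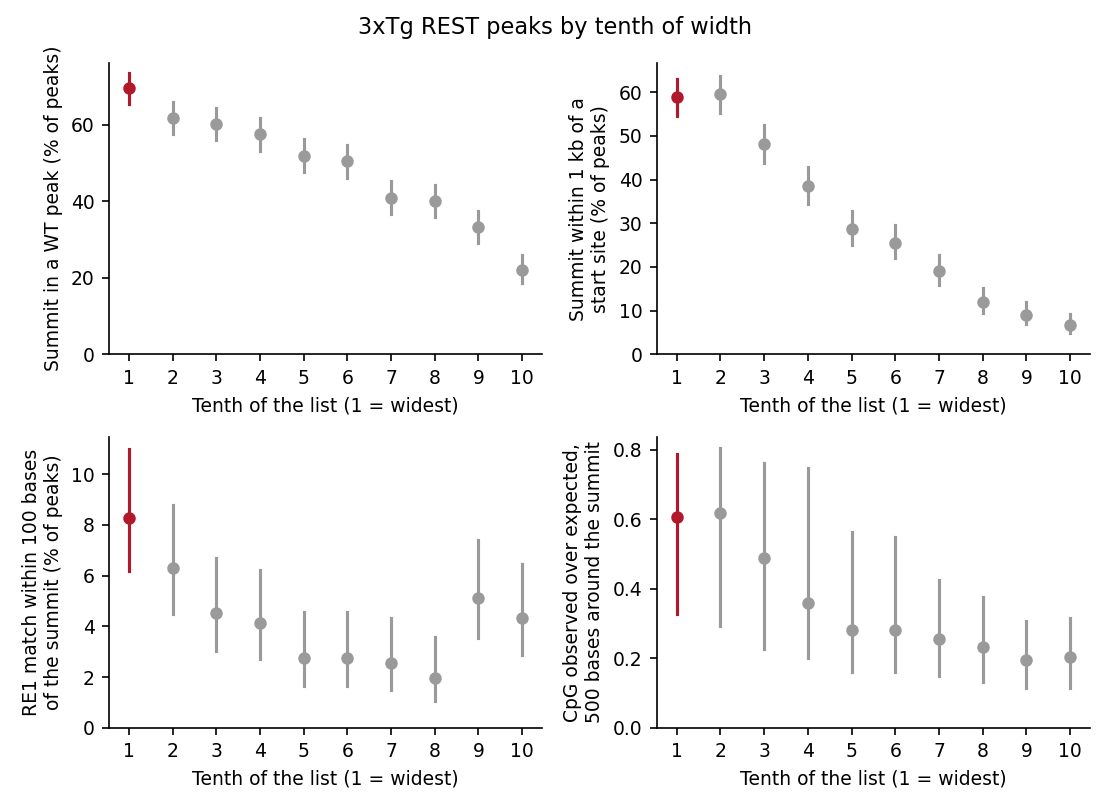
The 3xTg peaks in 10 groups by width, the widest (red) being the 508 described, with the percent of peaks with the summit in a WT peak, with a promoter summit and with an RE1 match (dots, with 95% Wilson intervals), and the median CpG observed over expected (dots, with quartiles). The WT and promoter shares are 69.5% and 58.9% in the widest group and 22.05% and 6.69% in the narrowest, while the RE1 share is lowest in group 8.

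Short RNA genes, classes that were set after the values were seen, lay under a number of the wide peaks. A tRNA gene was covered by 30 wide peaks (5.91%) and by 39 of the other 3xTg peaks (0.854%), and these 30 held 80 of the 403 annotated tRNA genes. By the summit, which does not depend on width, 29 wide peaks (5.71%, 4.00 to 8.08%) and 39 others (0.854%, 0.625 to 1.16%) lay within 500 bases of a tRNA gene. The widest, the peak near Irgm1 at chr11:48852855-48857179, held 4 tRNA genes under 4325 bases with a fold enrichment of 12.01 and 2 WT peaks. The next, the peak near Trim27 at chr13:21166494-21170587, held 5 under 4094 bases (9.85). A peak of 3500 bases at chr19:12009190-12012689 also held 5 tRNA genes and had a fold enrichment of 48.5. A WT peak was found at 25 of the 30.

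A small nuclear RNA (snRNA) gene, as RefSeq classes it, was covered by 16 wide peaks (3.15%) and 22 others (0.482%), and in all 16 the summit lay within 500 bases of it. Their fold enrichments were high, with a median of 26.1 and a range of 12.2 to 48.0, and all 16 had a WT peak. They included Rnu1a1 (35.4), of the U1 splicing particle, Rnu11 (29.9), of the minor spliceosome, and Rnu3a (19.3), of ribosomal RNA processing. A run of 6 of these peaks lay within 29780 bases at chr12:54709584-54739363, each over its own snRNA gene, with fold enrichments of 23.9 to 48.0 and a WT peak each. Clustered core histone genes lay under 9 wide peaks (1.77%) and 8 others (0.175%), and the 9 held 20 of the 58 genes, with a median fold enrichment of 10.3, and 3 of the 9 had a WT peak. No summit within 500 bases of a tRNA, snRNA or core histone gene had an RE1 match. These classes are multigene families, and how far reads could be told apart between similar copies was not measured here.

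**Figure D4:**
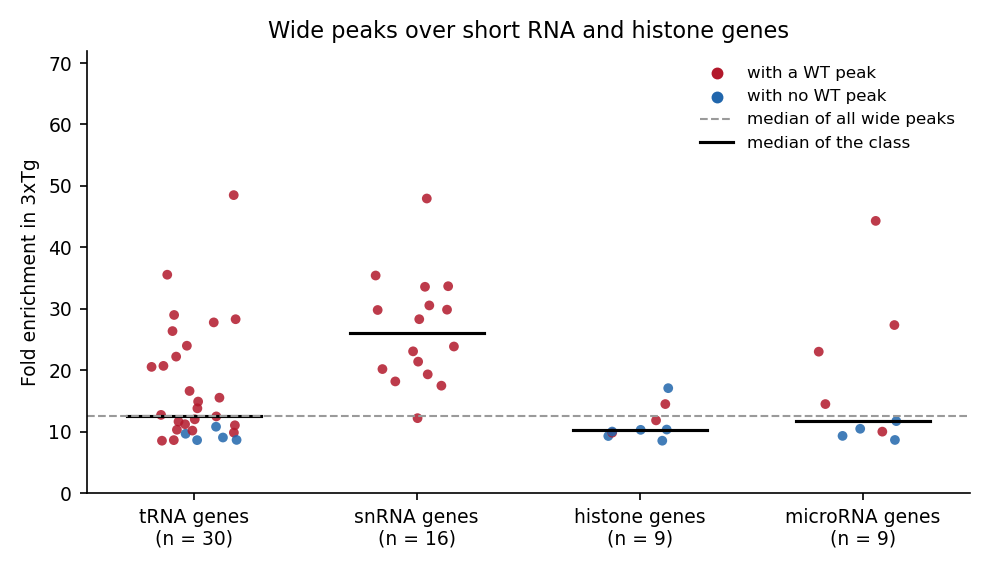
Fold enrichment of the wide peaks over tRNA, snRNA, core histone and microRNA genes, 1 point per peak, coloured by whether a WT peak overlaps it, with the median of each class (black line) and of all 508 (dashed line, 12.5). All 16 peaks over snRNA genes have a WT peak and their median is 26.1, while 6 of the 9 over histone genes have none and their median is 10.3.

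Every wide peak can be placed by the first of these features that it held. A curated start site was covered by 338, a tRNA gene by a further 26 and an snRNA gene by a further 10. Of the remaining 134, 15 had an RE1 match, 39 had a start site within 5 kb, 53 had the summit in an intron and 27 between genes. The intronic remainder had a median CpG observed over expected of 0.221 and a median fold enrichment of 15.3, and 37 of the 53 had a WT peak. Its widest peaks, named after their values were seen, lay in the gene 5031425E22Rik (3636 bases), in the adhesion receptor gene Adgrb3 (3373 bases, fold enrichment 41.1), in the neuronal transcription factor gene Mef2c (3158 bases, 16.6) and in the kinase gene Map4k4 (3069 bases, 15.7).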

How the data were processed

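REST ChIP-seq of pooled mouse cortex (4 WT and 4 3xTg replicates, 1 input each) was read from 2 deposited peak lists, 1 per genotype. Per the study's methods, the authors used STAR for alignment of single-end reads to mm10 and MACS for peak calling, and took out regions of the ENCODE blacklist. The submitters' processing notes name BWA for replicates 1 and 2 and the inputs, and STAR for replicates 3 and 4. Each deposited list gives for every peak a score, a fold enrichment, which is a ratio, a p-value and a q-value, both as −log10, and the summit. These are the authors' values, and the lists hold no read counts, so depth is unknown. The p-values and scores were not used.

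The 9 3xTg and 4 WT peaks on chromosome Y were left out, and the peaks were ordered by width. Overlap meant at least 1 shared base. Start sites, exons and genes came from the RefSeq annotation of GRCm38.p6 (mm10), with curated transcripts and 26180 genes, which held 302 of the 308 entries of the gene lists. RE1 was searched in 200 bases and G and C content in 500 bases around the summit, with windows 10 kb downstream as controls. No significance test was run, because each list pools its replicates. Python 3.11.15 with numpy 2.4.6, pandas 2.3.3 and scipy 1.17.1 was used. The motif search and overlaps were tested on simulated data and against bedtools 2.31.1.

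The peaks and gene lists were chosen with earlier results of these data known. The peaks named were the 15 widest, and in order those with the most WT peaks or genes, the highest or lowest fold enrichment, no WT peak, no start site within 5 kb, the fewest RE1 mismatches, the extreme ratios to the WT width, those at the width limit and those over a listed gene. Peaks and classes named otherwise are marked as chosen after their values were seen. Alternatives were limits on fold enrichment and q, other overlaps, annotations, windows and mismatch numbers, and the widest 254 and 1015 peaks. Results on 1 region are not reported here.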

Additional observations from a re-analysis of the deposited data

Results flagged for a closer look

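All mice were female by the study's methods, and peaks on chromosome Y were left out of the description above. The 3xTg list held 9 of them and the WT list 4, signal that no comparison above uses. A number of called peaks is not a measure of Y-linked DNA. Of the 9, 5 lay between bases 90765359 and 90813278, and in the other 4 the repeat-masked share ran from 51.3% to 96.9%. Of the 5, 2 were as wide as the peaks described, at 3235 and 2706 bases, with fold enrichments of 11.2 and 19.0, and both overlapped a WT peak. In these peaks the repeat-masked share of bases was 42.2% and 80.0%.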

How the results depend on the processing

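No paired analysis was possible because each list combines the 4 replicates of its genotype, and for the same reason no replicate could be left out. Of 44 alternatives, 30 stayed within the interval of the value above or, for counts of genes, within 1.5 times. The other 14 moved. The share of wide peaks with a WT peak (71.7%) was 35.5% once both lists were limited to fold enrichments over 10, 31.9% where a WT peak had to cover 50% of the peak and 66.9% in the widest 1015. The share over 2 WT peaks (2.95%) was 0.312%, with the same limit of 10, 5.12% in the widest 254 and 1.48% in the widest 1015. The share over a start site (66.5%) was 73.0% with predicted transcripts, 58.9% by the summit within 1 kb and 78.1% within 5 kb of the peak. The share over both strands (16.1%) was 11.0% for protein-coding genes and 22.4% with predicted transcripts. The RE1 share (8.27%) was 17.3% with 3 mismatches and 20.5% in the whole peak. The downstream share (51.0%) was 56.2% for peaks with 1 start site. No direction is attached to these shares, and the causes of the moves were not tested.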

Other observations

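The 508 wide peaks lay on 20 chromosomes. They made up 15.8% of the 3xTg peaks on chromosome 19 (25 of 158), 13.3% on chromosome 11 (50 of 377) and 6.52% on chromosome 16 (12 of 184). In 16 runs, 37 wide peaks lay within 10 kb of each other, and of these runs 14 were pairs. One pair, chosen after its values were seen, lay at Dusp6, a phosphatase of the ERK kinases, with fold enrichments of 13.9 and 16.2.

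Over 50% of the bases were repeat-masked in 5 wide peaks (0.984%) and in 142 of the other 3xTg peaks (3.11%). All 5 had a WT peak, and none covered a start site. Those described here had the summit in introns of Cenpo (86.4% masked), Mief1 (74.7%), Cttnbp2nl (91.8%) and Mbnl1 (77.3%). At Mief1 the 3xTg peak was 1.01 times as wide as the WT peak and at Cenpo 1.13 times.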
